A study of Mus musculus with 4 samples.

Results

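Max is the obligate partner of Myc: as a Myc-Max dimer the basic helix-loop-helix factors bind the E-Box CACGTG, a palindrome that reads the same on both strands. Max also pairs with N-Myc, with the Mxd proteins and Mnt, and with Mga, and these dimers bind the same sequence, so that an E-Box held by Max need not be held by Myc. In embryonic stem cells (ESCs) Mga and Max belong to the variant polycomb complex PRC1.6, which also holds E2f6 and is known for keeping germ cell genes silent. The regions described here are the Max peaks at protein-coding promoters that carried at least 1 E-Box and overlapped no peak of biotin-tagged Myc (Bio-Myc). They numbered 1357 of the 11570 Max peaks.

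The chromatin came from mouse E14 ESCs, and 4 samples were sequenced after chromatin immunoprecipitation (ChIP-Seq). Max was purified with an anti-Max antibody from parental wild type cells, and an IgG antibody in the same cells was its control. Bio-Myc was purified with streptavidin beads from a single stable clone that expressed biotin-tagged Myc under the EF1-alpha promoter. Its BioMock control was purified with the same beads and is labelled parental wild type, whereas the methods of the study describe mock cells that express the biotin ligase BirA without a tagged protein. The peaks were called against these controls, and the Max and Bio-Myc lists held 11570 and 3962 peaks. Each ChIP had 1 library, so no p-value was computed, and the 95% intervals below cover counting error over the peaks of these libraries only. The Max and Bio-Myc ChIPs differed in cells, reagent and control, and read depth is unknown, so the absence of a Bio-Myc peak cannot be told apart from binding below the limit of its peak calling. Neither the rank of a Max score nor the absence of Bio-Myc is a finding about the members, because both were used to choose them.

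The members were chosen stepwise. On the 18 autosomes used, which leave out chromosome 8, the Max list held 10113 peaks, and 10104 had a score below 3100, the highest value in the list. The score is -10 times the log10 of the p-value given by the peak caller. Of these peaks, 7290 overlapped no Bio-Myc peak and 4560 of the 7290 also overlapped the 1 kb to either side of a transcription start site (TSS) of a protein-coding gene. An E-Box lay under 1357 of the 4560, a share of 29.8% (95% Wilson interval 28.4 to 31.1%). Of the 2291 promoter peaks shared with Bio-Myc, 1184 held an E-Box, a share of 51.7% (49.6 to 53.7%). These 1184 shared peaks and the 3203 Max-only promoter peaks without an E-Box served as comparisons. Above the score limit, 9 peaks at 3100 were left out, and 3 of them, all at Sfi1 on chromosome 11, met every other criterion. At the edge of the promoter window, the outermost members were peaks 994 bp from a TSS of Smtn and of BC027582. The nearest peaks left out were 1008 bp from a TSS of Fzd7 and 1010 bp from a TSS of H60b.

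The sequences around E-Boxes of the highest-scoring members are given first, although an E-Box under a peak was not shown to be the bound site. The lines below give 30 bases of mm9 around the most central E-Box of 6 of the 10 highest-scoring members, on the strand of the nearest gene, with the E-Box in capitals. They are shown because 5 of these 6 genes are germ cell genes. These E-Boxes stood from 33 bp (Stk31) to 520 bp (Boll) from the peak centre.
Gm4969 (chr7:19703847-19703876, minus strand): cgggagcgggagCACGTGtcggagctgtgg
Tdrkh (chr3:94216633-94216662, plus strand): tgactttcggtcCACGTGgcgtgtgcagcg
Hdac2 (chr10:36693958-36693987, plus strand): gggtccccgcggCACGTGgcgggctcgggc
Ddx4 (chr13:113442530-113442559, minus strand): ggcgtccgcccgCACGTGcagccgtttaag
Boll (chr1:55420589-55420618, minus strand): gagcagagtttgCACGTGggaacttgtctt
Stk31 (chr6:49345471-49345500, plus strand): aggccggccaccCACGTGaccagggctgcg

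The Max scores of the members ran from 80.1 to 2075, with a median of 186 (95% interval 177 to 198). The shared promoter peaks with an E-Box had a median score of 333, and the Max-only peaks without one had a median of 138. The highest member, from 19703261 to 19704289 on chromosome 7 with a score of 2075, lay at Fbxo46 and Gm4969. Gm4969 carries the synonym Meiosin in RefSeq, the name of a factor that starts the meiotic programme in germ cells. The E-Box was 145 bp upstream of the TSS of Gm4969 and 86.5 bp from the peak centre. Next in order among single-copy sites came Tdrkh, an adaptor protein of the piRNA pathway of germ cells, with 1613, Hdac2, a histone deacetylase, with 1601, and Ddx4, the germ cell RNA helicase also called Vasa, with 1310. Boll, an RNA-binding protein of the Dazl family, had 1157, the peak between 1810031K17Rik and Fam134a had 1127, Stk31, a kinase of the male germ line, had 1072, and Igf2r, the receptor that clears insulin-like growth factor 2, had 1024. Of the 439 promoter peaks with an E-Box and a score of 500 or more, 109 were members, and of the 70 with 1000 or more, 13 were members. Over all scores, the promoter peaks with an E-Box were 1357 members and 1184 shared peaks, so members made up a smaller part at these high scores.

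The other 2 of the 10 highest scores lay in repeated sequence. Gm10717, with 1619, and the pair Gm10715 and Gm17535, with 1160, are gene models near the start of chromosome 9, where 5 members carried an identical 30-base site that occurs 13 times in mm9.
Gm10717 (chr9:3026209-3026238, plus strand): ctcgccatatttCACGTGctaaagtgtgta
The other 3 were Gm10719 with Gm11167, at 455, Gm10716, at 209, and Gm11168, at 93.7. A further member near a chromosome start, at Eif4enif1 on chromosome 11, had 843, and its site occurs once in mm9. The main results were also computed without these 6 peaks.

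Germ cell genes were the list with the largest share of members among the 18 gene lists used. Of the 20336 protein-coding genes on the autosomes used, 1447 had a member peak (7.12%), 1351 a shared peak with an E-Box (6.64%), 3369 a Max-only peak without an E-Box (16.6%) and 1294 a shared peak without an E-Box (6.36%). Of 31 germline and meiosis genes, 14 had a member peak (45.2%, 29.2 to 62.2%), 5 had a shared peak with an E-Box, 6 had a Max-only peak without an E-Box and 4 had no Max peak at a promoter. The lists were written with earlier results of these data known, so these counts are a description. Germline member peaks were wide, and with peaks of 500 to 1000 bp alone 4 germline genes had one.

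The germ cell members fall into known groups. For the piRNA pathway, which silences transposons in germ cells, the scores were 1613 at Tdrkh, 854 at Mov10l1, a helicase, 749 at Tdrd1, a tudor protein, 688 at Mael, 366 at Piwil2, a Piwi protein, and 106 at Tdrd9, a helicase. For meiotic recombination and its chromosome axis, they were 981 at Mei1, 945 at Hormad1 and 506 at Msh4. For RNA-binding and other germ cell proteins, they were 1310 at Ddx4, 1072 at Stk31, 726 at Slc25a31, the ADP/ATP carrier of male germ cells, 491 at Dazl, an RNA-binding regulator of translation, and 201.5 at Brdt, a bromodomain protein of the testis. The median score of the 14 peaks was 737, against 186 for all members, and 12 of the 14 lay in the highest quartile of member scores. In 11 of them the most central E-Box was upstream of the TSS, and the distance from the TSS ran from 8 bp at Tdrd1 to 570 bp at Tdrkh. Members chosen by other parts of the naming rule add Boll and Rnf17, a tudor protein of germ cells, whose peak scored 572 with its E-Box at the exact centre. The germ cell genes with a shared peak and an E-Box were Stag3, Sycp1, Sycp3, Zcwpw1 and Mlh3, with Max scores of 1425, 909, 575, 1722 and 190, so the list was divided between the classes and was not bound by Max alone.

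**Figure D1:**
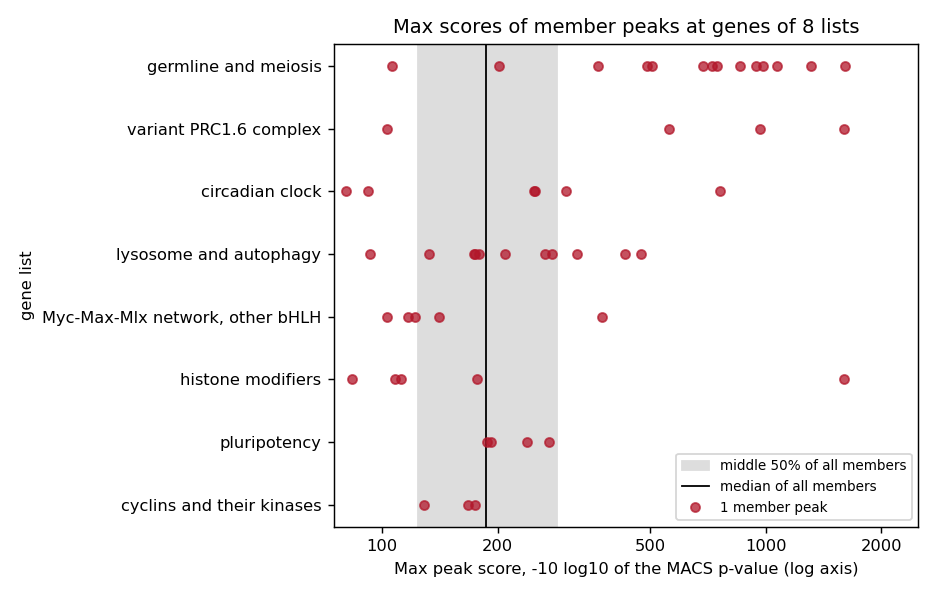
Max score of each member peak (horizontal log axis, -10 times log10 of the peak caller's p-value) for 8 gene lists (rows). Each point is 1 member peak, the black line is the median of all members (186) and the grey band holds their middle 50% (124 to 285). The germline and meiosis points lie mostly to the right of the band, up to 1613, while the lysosome and autophagy points reach 472.

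Subunits of PRC1.6 itself were among the members. Of 14 genes of the complex, 4 had a member peak (28.6%, 11.7 to 54.6%) and 5 a shared peak with an E-Box. The 4 were Hdac2 with 1601 and 3 E-Boxes, E2f6, the E2F protein of the complex, with 964, Tfdp2, the dimer partner of E2F proteins, with 560, and Mga, the Max partner of the complex, with 103. The E-Boxes of E2f6 and Tfdp2 were 384 and 475 bp upstream of their TSS. At Mga the member peak was intronic, 1222 bp downstream of a TSS and 260 bp from a Bio-Myc peak, and the gene also had a shared peak without an E-Box with a score of 904, so Mga was not free of Bio-Myc. With the E-Box required in the central 500 bp, 2 of the 4 genes had a member peak, and in peaks of 500 to 1000 bp 1 had.

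Lysosome and autophagy genes were a further group with a share above the background. TFEB and its relatives, which bind an E-Box with particular flanks, are the known regulators of these genes. Of 43 genes, 11 had a member peak (25.6%, 14.9 to 40.2%), 8 had a shared peak with an E-Box and 13 had no Max peak at a promoter. Their sites are shown because the bases around the E-Box are what separates TFEB sites from other E-Boxes.
Hexa (chr9:59387476-59387505, plus strand): ctgaccggggctCACGTGggctcagcctgc
Gaa (chr11:119129334-119129363, plus strand): ccgcccacagacCACGTGacccacgctgcc
Wipi1 (chr11:109473288-109473317, minus strand): tgaaaacaccacCACGTGgcctgctgcctt
Atp6v1c1 (chr15:38591682-38591711, plus strand): tgctccggctggCACGTGacttgctctggg
Naglu (chr11:100931323-100931352, plus strand): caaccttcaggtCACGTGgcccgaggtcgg
Hexa, a subunit of beta-hexosaminidase, had a score of 472 and its E-Box 9 bp downstream of the TSS. Gaa, the lysosomal enzyme that degrades glycogen, had 431, with the E-Box 7 bp downstream of the TSS. Wipi1, which acts in autophagosome formation, had 322, with the E-Box 22 bp upstream. Atp6v1c1, a subunit of the proton pump of the lysosome, had 277, with the E-Box 38 bp downstream, and Naglu, an enzyme of heparan sulfate breakdown, had 266, with the E-Box 12 bp downstream. Further members of the list were Ctsf, Vps33a, Ctsa, Atp6v0b and Atp6v1e1, with scores from 92.9 to 209, and the E-Box of 9 of the 11 lay within 50 bp of the TSS. In peaks of 500 to 1000 bp, 7 of these genes had a member peak.

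The Myc network, the circadian clock and pluripotency genes held a few members each. Of 23 genes of the Myc-Max-Mlx network and other E-Box factors, 5 had a member peak (21.7%, 9.66 to 41.9%): Mxd4, a Max partner that opposes Myc, with 375, Srebf1, a regulator of lipid synthesis, with 140, Hif1a, the hypoxia factor, with 122, Mycl1, the gene of L-Myc, with 117, and Mga. Of 21 clock genes, 4 had a member peak (19%, 7.67 to 40.001%). Per1, a repressor of the clock, had member peaks with scores of 760 and 251 at different start sites, Bhlhe41 had 302 and 80.4, and Nfil3 had 92.1, and 6 clock genes had a shared peak with an E-Box. Where the peak had to cover a TSS, 2 clock genes had a member peak. Of 25 pluripotency genes, 4 had a member peak (16.0%, 6.40 to 34.7%): Lin28b with 273, Tet2 with 239, Lefty2 with 193 and Sox2 with 188. Lin28b also had a Bio-Myc peak within 1 kb of one of its start sites, so this gene was not free of Bio-Myc. Sox2 was the 1 member among 13 genes that the text of the study names, a list that the study chose on these samples. The study counts Sox2 among its Myc targets, whereas the nearest peak in the Bio-Myc list used here was 106 kb from this member peak. The source of this difference was not tested. The sites of Per1, Mxd4 and Sox2 follow, as regulators from these lists, with those of E2f6 and of Tert, the telomerase gene, whose E-Box covered the TSS.
E2f6 (chr12:16817372-16817401, plus strand): ttcgaattcaaaCACGTGatctccctgcct
Per1 (chr11:68908557-68908586, plus strand): cgcccccgccctCACGTGgctctatcacta
Mxd4 (chr5:34530561-34530590, minus strand): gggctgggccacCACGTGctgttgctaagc
Tert (chr13:73764434-73764463, plus strand): tcttggttcccgCACGTGggaggcccatcc
Sox2 (chr3:34548174-34548203, plus strand): aggggttgaggaCACGTGctgcggttcctt
The histone modifiers held 5 members of 42, namely Hdac2, Kdm4c with 177, Kdm2b with 112, Kat5 with 108 and Setd1b with 83.4, and the cyclins and their kinases 3 of 33, namely Ccnd3 with 175, Ccnd2 with 168 (167.5) and Ccnh with 129. Among lineage regulators, 2 of 34 were members, Cdx2 with 152 and Gata3 with 121. The shares were 11.9% for histone modifiers, 9.09% for cyclins and their kinases and 5.88% for lineage regulators. The intervals of these lists and of the pluripotency genes included the 7.12% of all genes, so these counts do not set them apart. None of the 34 lineage regulators had a shared promoter peak with an E-Box, against 6.64% of all genes. No upper limit was computed for this count.

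Growth and biosynthesis genes, which include classical Myc targets, held 0 to 2 members in each list, counts too small to set their shares apart from that of all genes. None of the 25 nucleotide synthesis genes had a member peak, which allows a share of up to 12% (3 counts of the total, with a Wilson limit of 13.3%), and 15 of them had a shared peak with an E-Box. None of the 35 genes of mitochondrial protein import and the mitochondrial ribosome had one, which allows up to 8.57% (Wilson limit 9.89%), and 8 had a shared peak with an E-Box. Of 34 ribosome biogenesis genes, 18 had a shared peak with an E-Box and 2 had a member peak, Rrp12 with 245 and Nop56 with 117, the latter 270 bp from a Bio-Myc peak. The counts were 2 of 35 for mRNA splicing (Lsm7 with 337 and Prpf31 with 86.8), 1 of 31 for DNA replication (Pold1, 313), 1 of 36 for DNA repair (Xrcc5, 226), 1 of 38 for transport from the endoplasmic reticulum to the Golgi (Uso1, 291) and 1 of 30 for the proteasome (Psmb3, 357). These shares, from 2.63% to 5.88%, were below the 7.12% of all genes, but the interval of each included it, as did those of both lists with no member. A shared peak with an E-Box was found at 25% of the DNA repair, 17.1% of the splicing and 12.9% of the DNA replication genes. For the proteasome it was 10% and for transport to the Golgi 7.89%, against 6.64% of all genes.

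**Figure D2:**
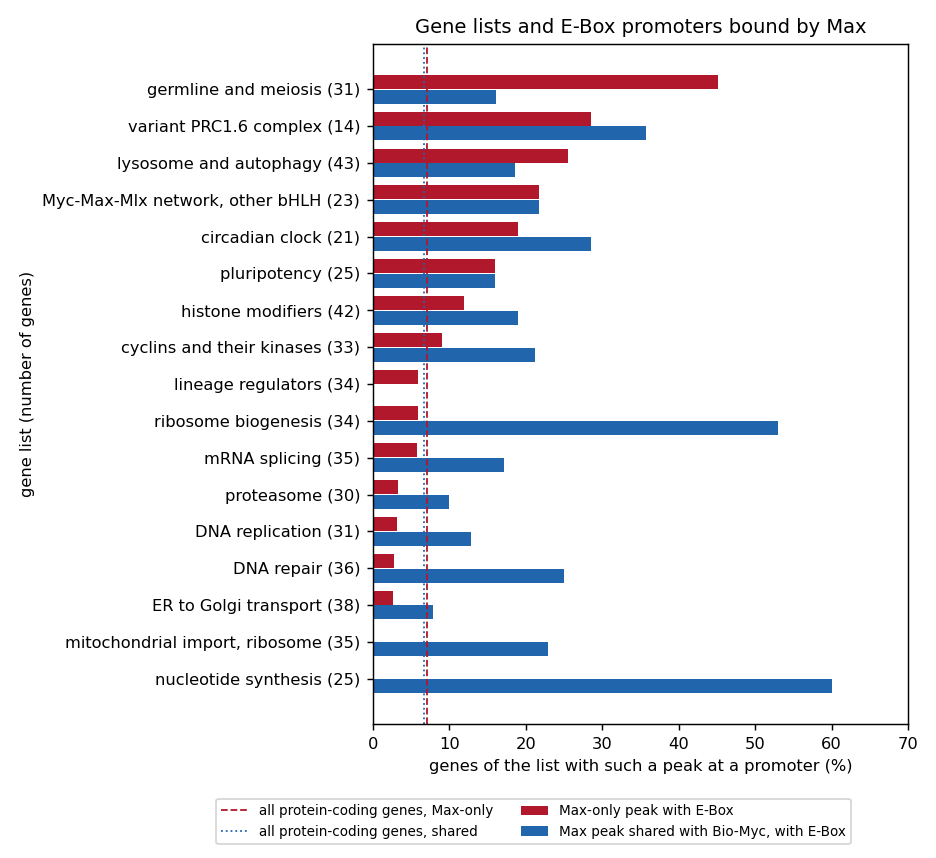
Percentage of the genes of each list (rows, number of genes in brackets) that had a member peak (red) or a Max peak shared with Bio-Myc and holding an E-Box (blue) at a promoter. The dashed and dotted lines mark the shares of all protein-coding genes, 7.12% and 6.64%; germline genes have the longest red bar (45.2%) and nucleotide synthesis the longest blue bar, with no red one.

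Within the members, the E-Box lay near the centre of the Max peak. The most central E-Box was within 100 bp of the centre in 715 of the 1357 members (52.7%, 50.03 to 55.3%), and the median distance was 93.0 bp (86.0 to 100.5 bp). To set this against other sequences, 7 palindromes with a central CG were counted in all Max-only promoter peaks, using peaks with exactly 1 match. The share within 100 bp was 51.0% for the E-Box (n = 1127) and 23.3% to 35.9% for the other palindromes, the highest being TGCGCA, while even placement over the peaks would give 24.2%. The E-Box was at the exact centre at Rnf17 and Zbtb40 and 949 bp from it at the peak of Fkbp10 and Leprel4, which scored 667. Shared peaks had the E-Box within 100 bp in 44.8% of cases, 7.84 percentage points fewer (Newcombe interval 3.95 to 11.7). The median width was 854 bp in members and 1059 bp (1058.5) in shared peaks, and the direction turned when only peaks of 500 to 1000 bp were used: 67.7% of 923 members against 73.3% of 513 shared peaks, a difference of -5.58 points (-10.4 to -0.62). In the plot of E-Box density by distance from the centre, the height is raised by requiring an E-Box in each peak, and only the wider peaks reach the outer steps, with 26.2 kb of member sequence at 550 to 600 bp against 136 kb in the first step. The part of either in the fall of the density was not tested.

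**Figure D3:**
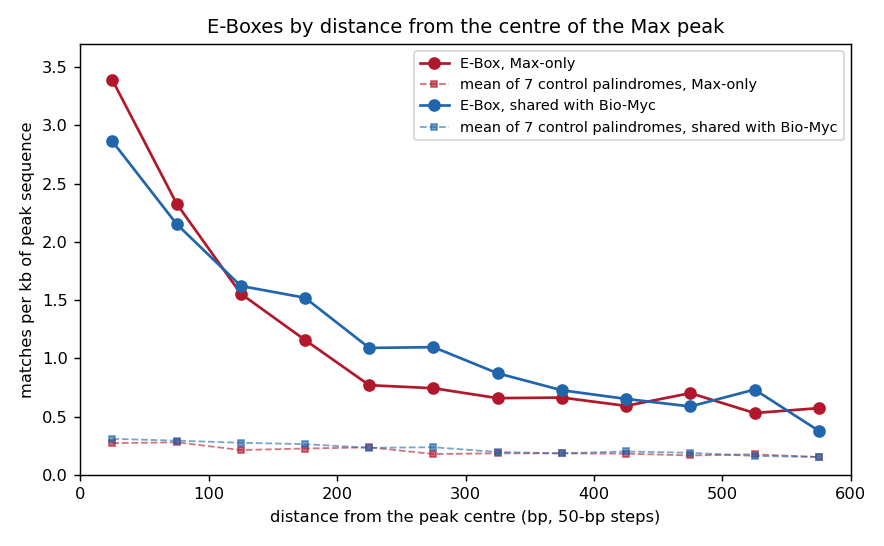
E-Boxes per kb of peak sequence (vertical axis) by distance from the centre of the Max peak in 50-bp steps (horizontal axis), in members (red) and shared peaks (blue), with the mean of 7 control palindromes (dashed). E-Boxes fall from 3.39 per kb at the centre of member peaks to 0.57 per kb at 550 to 600 bp.

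Most members had a single E-Box. There were 1127 members with 1, 202 with 2, 23 with 3, 2 with 4 and 3 with 5, or 1623 E-Boxes in all. The share with 2 or more was 16.9% (15.05 to 19.04%) against 29.3% (26.8 to 32.0%) of the shared peaks, a difference of -12.4 points (-15.6 to -9.08). In peaks of 500 to 1000 bp the shares were 13.5% and 19.1%, a difference of -5.56 points (-9.73 to -1.61). The members with 5 E-Boxes were Klf15, a Krueppel-like factor of metabolism, with a score of 686, Efna3, an ephrin ligand, with 569, and Mfsd1, a transporter of the lysosomal membrane, with 433.
Klf15 (chr6:90412555-90412584, plus strand): cgcccgcggcgtCACGTGagcggccggaga
Efna3 (chr3:89124611-89124640, minus strand): gccccttggggtCACGTGgggagggtctgc
Mfsd1 (chr3:67386660-67386689, plus strand): aacacacgtgatCACGTGagtgctgccgct
At Efna3 the 5 E-Boxes stood between 70 bp before and 53 bp after the peak centre, and at Mfsd1 they stood from 117 to 49 bp before it, so that the line printed for Mfsd1 also holds a neighbouring E-Box in lower case. At Klf15 they were spread over the peak, from 1063 bp before the centre to 689 bp after it. Neighbouring E-Boxes in a member were a median of 168 bp (167.5) apart, and 65 of 266 neighbouring pairs (24.4%, 19.7 to 29.9%) were within 50 bp of each other.

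The E-Boxes of the members clustered just upstream of the TSS. The most central E-Box was upstream of the nearest TSS in 55.05% of members (52.4 to 57.7%) and in 49.5% of shared peaks, a difference of 5.55 points (1.66 to 9.43). The 100 bp directly upstream held 291 members (21.4%) and the 100 bp downstream 128 (9.43%), against 21.0% and 15.03% of the shared peaks. Members were also found farther away: 51.3% had the E-Box within 250 bp of the TSS against 59.3% of shared peaks (difference -8.0 points, -11.8 to -4.13), 16.3% had it over 500 bp downstream against 11.9%, and 10.02% had it over 500 bp upstream against 6.84%. The peak itself covered a TSS in 74.8% of members, 89.4% of shared peaks and 81.0% of Max-only peaks without an E-Box. By the annotation, the E-Box lay outside protein-coding genes in 39.2% of members, in an intron in 32.2%, in a non-coding part of an exon in 16.4% and in a coding exon in 12.2%. Klf15, Tmbim4, Ece1, Tert and Slc39a11 had the E-Box across the TSS itself. Where only peaks that cover a TSS were used, the difference within 250 bp was 1.62 points (-2.44 to 5.66), in the other direction.

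**Figure D4:**
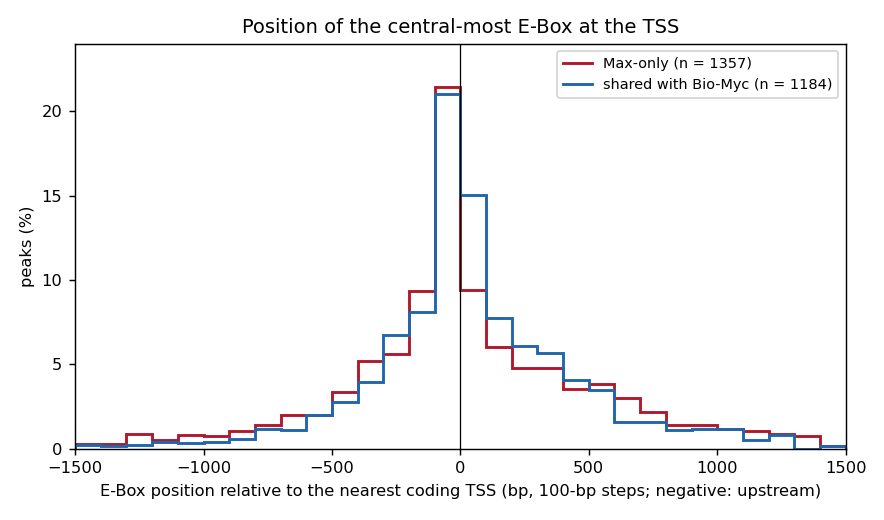
Percentage of peaks (vertical axis) by the position of the most central E-Box relative to the nearest protein-coding TSS (horizontal axis, 100-bp steps, negative upstream), for the 1357 members (red) and the 1184 shared peaks (blue). Both peak in the 100 bp upstream (21.4% and 21.0%), while in the 100 bp downstream members (9.43%) stand lower than shared peaks (15.03%).

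Member promoters were less rich in CpG and less often divergent. The observed to expected ratio of CpG in the central 500 bp had a median of 0.736 (0.720 to 0.752) in members, 0.825 (0.811 to 0.836) in shared peaks and 0.799 (0.793 to 0.805) in Max-only peaks without an E-Box. A CpG-rich centre, with a ratio of at least 0.6 and at least 55% GC, was found in 68.1% of members, 82.6% of shared peaks and 81.9% of Max-only peaks without an E-Box. The GC content differed less, with medians of 62.8%, 64% and 65%. The median Max scores were 186, 333 and 138 in the same order, and the part of the score in these differences was not tested. A divergent promoter, with start sites of different genes on opposite strands, was found at 6.26% of members (5.09 to 7.68%), 13.1% of shared peaks and 8.12% of Max-only peaks without an E-Box. The difference from the shared peaks was -6.83 points (-9.18 to -4.53). In peaks of 500 to 1000 bp this difference was -3.55 points (-6.62 to -0.82).

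The base directly before the E-Box, read on each strand so that each E-Box counts in both directions, was C in 33.4%, G in 26.5%, T in 23.9% and A in 16.1% of 3246 positions in members. Shared peaks had T less often, at 20.3%, a difference of 3.60 points (1.59 to 5.61), and C more often, at 36.6% (-3.18 points, -5.49 to -0.87), while A and G differed by under 0.3 points with intervals that included 0. Promoter E-Boxes under no peak of either list had A in 26.2%, a difference of -10.1 points for members minus unbound (-11.5 to -8.62), and T in 22.0%, a difference of 1.90 points (0.33 to 3.52). Both directions turned when these unbound E-Boxes were limited to CpG-rich sequence: 13.3% had A, a difference of 2.83 points (0.38 to 5.11), and 32.0% had T, a difference of -8.11 points (-11.3 to -5.04). The members were not limited to CpG-rich sequence in this comparison, so the compared sets differ in CpG content. The bases at the 2 ends of an E-Box are not independent, so these intervals are too narrow where ends are alike.

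In the whole set of 11677 E-Boxes in the promoter windows of protein-coding genes, 12.9% lay under a member, 12.9% under a Max peak and a Bio-Myc peak, 1.88% under Bio-Myc alone and 71.7% under no peak. Among the 2591 in CpG-rich sequence, 33.5% lay under a member, 41.5% under both factors and 21.5% under no peak. In these CpG-rich sites, the share under both factors was 46.3% with no T at the ends and 33.2% with T at both ends, a difference of -13.1 points (-19.0 to -6.80). The share under a member was 31.6% and 33.9%, a difference of 2.33 points with an interval from -3.55 to 8.57. The E-Boxes with GT before and AC after, the form known for TFEB, are shown because they carry T at both ends, and 39 members held such a site.
Igf2r (chr17:12962562-12962591, minus strand): gccgactcaggtCACGTGacgctccgggga
Tbc1d24 (chr17:24342957-24342986, minus strand): gcctctgccggtCACGTGaccgtgtcccca
Gpr176 (chr2:118199758-118199787, minus strand): tgggtcgtgcgtCACGTGacctcgcctgcc
Akap11 (chr14:78936783-78936812, minus strand): gcgcctccgcgtCACGTGacgggcgacccg
Dazl (chr17:50432398-50432427, minus strand): cggcctgggcgtCACGTGacggctctttcc
These 5 had the highest scores of the 39, from 1024 at Igf2r to 491 at Dazl, with 898 at Tbc1d24, 819 at Gpr176 and 598 at Akap11. The lysosomal genes Vps33a, Hyal1 and Arsa were also among the 39, with scores of 179, 95.8 and 91.7. This form made up 2.40% of E-Boxes in members and 2.06% in shared peaks, a difference of 0.34 points with an interval from -0.69 to 1.39. It made up 0.98% of all unbound promoter E-Boxes, with members higher by 1.42 points (0.74 to 2.31), and 5.40% of those in CpG-rich sequence, with a difference in the other direction (-2.99 points, -5.29 to -1.18). Here too only the unbound E-Boxes, and not the members, were limited to CpG-rich sequence.

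Other motifs were searched on both strands in the central 500 bp, and the same motif was counted in 500-bp windows around all 64142 coding start sites. Of 23 motifs, 7 were lower in members than in shared peaks with an interval that excluded 0, and 2 were higher. The largest difference was in the variant E-Box CACGCG, in 31.6% of members and 41.3% of shared peaks (-9.69 points, -13.4 to -5.94; 16.7% of all start sites). The box of SP and KLF factors GGGCGGG was found in 47.8% against 55.2% (35.0% of all start sites), the ETS motif CCGGAAG in 17.1% against 21.9% (13.5%), the cyclic AMP element TGACGT in 11.1% against 14.7% (10.1%), the NRF1 motif GCATGCG in 6.93% against 9.38% (5.09%), the ZBTB33 motif CTCGCGA in 3.83% against 5.83% (3.25%) and TGCGCA in 18.6% against 22.7% (11.5%). The higher ones were CAGCTG, the E-Box of tissue-specific factors, in 27.1% against 20.2% (6.93 points, 3.62 to 10.2; 26.8% of all start sites), and the KLF4 motif GGGTGTG, in 15.5% against 11.7% (12.3%). Over the whole peak, the difference in CAGCTG was 2.54 points with an interval that included 0 (-1.30 to 6.36), and that in KLF4 was -0.53 points (-3.95 to 2.87). In peaks of 500 to 1000 bp, the KLF4 difference was 2.78 points (-1.13 to 6.44). All 7 lower motifs hold CG and both higher ones do not. In CpG-rich peaks alone, the number of lower motifs was 4, with differences of -6.61 points for CACGCG (-11.02 to -2.16), -6.48 for the SP and KLF box (-10.9 to -2.04) and -4.99 for the ETS motif (-8.65 to -1.29), while CAGCTG was higher by 6.35 points (2.57 to 10.1) and KLF4 by 3.58 (0.55 to 6.63). The E2F6 motif GCGGGAA was in 13.3% of members, 15.6% of shared peaks (-2.36 points, -5.13 to 0.37) and 16.5% of Max-only peaks without an E-Box (-3.22 points, -5.38 to -0.94), and in 4 of the 14 germline peaks. The T-box motif TCACACC, which Mga could bind through its T-box domain, was in 5.67%, 4.98% and 7.21%. Against Max-only peaks without an E-Box, 8 of the 23 motifs were lower in members and 0 higher, by intervals that excluded 0. In that class CAGCTG was in 26.8%, with members higher by 0.36 points (-2.42 to 3.22). KLF4 was in 14.0% of that class, with members higher by 1.52 points (-0.69 to 3.85). A match is a description of the sequence and not a bound site.

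**Figure D5:**
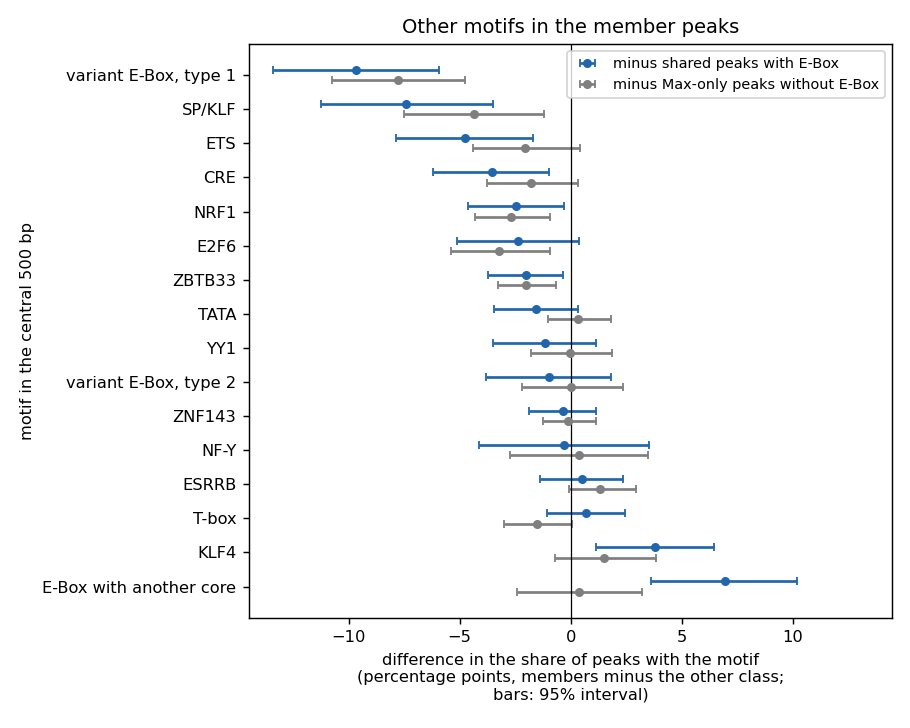
Difference in the share of peaks with each motif in the central 500 bp (horizontal axis, percentage points) between members and shared peaks with an E-Box (blue) or Max-only peaks without one (grey); bars are 95% Newcombe intervals. Type 1 is CACGCG, type 2 is CATGTG and the other core is CAGCTG; type 1 stands lowest (-9.69) and CAGCTG highest (6.93) against shared peaks.

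Several of these features changed with the Max score among the members. From the lowest to the highest quartile of scores, the share with 2 or more E-Boxes went from 9.44% to 28.2% (18.8 points, 13.0 to 24.5), CACGCG from 24.2% to 42.1% (17.9 points, 10.8 to 24.7) and the E2F6 motif from 10.03% to 18.5% (8.50 points, 3.25 to 13.8). The control palindrome TGCGCA went up by a like amount, from 15.3% to 23.2% (7.90 points, 1.958 to 13.8). The median CpG ratio went from 0.631 to 0.824. The E-Box within 100 bp of the centre went the other way, from 66.7% to 38.5% (-28.1 points, -35.1 to -20.7), and the peak width went from a median of 672 to 1160 bp (1159.5). The T-box motif was in 5.31% and 6.18%, a difference of 0.87 points (-2.74 to 4.50). The base before the E-Box was A less often in the highest quartile, with a difference of -8.14 points (-11.9 to -4.43), and C more often, with 7.85 points (2.73 to 12.9). The quartiles differ in peak width, and its part in these differences was not tested. The highest quartile had scores from 285 to 2075. All shared peaks with an E-Box were near it, with 29.3% for 2 or more E-Boxes, 41.3% for CACGCG and a CpG ratio of 0.825. With scores of 150 or more in both classes, members minus shared peaks gave -10.3 points (-14.2 to -6.39) for 2 or more E-Boxes. For CACGCG the difference was -8.44 points (-12.8 to -4.04). The part of the score in the differences between the classes was not tested.

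Most members were far from any Bio-Myc peak. The nearest Bio-Myc peak was a median of 86.0 kb away, and the middle 50% of distances ran from 29.4 to 247 kb. It lay within 1 kb of 38 members (2.80%) and within 5 kb of 81 (5.97%). The closest were Cited2, a transcriptional co-regulator, at 4 bp, Rrp1b at 19 bp, Hira with Mrpl40 at 52 bp, Esrra, a nuclear receptor of energy metabolism, at 78 bp and Dirc2 with Hspbap1 at 131 bp, and for these the separation rests on where the edges of the peaks were drawn. The farthest was Sema3e, a semaphorin, at 5601 kb. Of the 1447 genes with a member peak, 82 had a Bio-Myc peak within 1 kb of one of their start sites, and 59 also had a shared peak at a promoter. Over all genes, 6.64% had a shared peak with an E-Box and 6.36% one without. The rule removed every peak that overlaps Bio-Myc, and no like distances are given for the other Max-only peaks. The distances are therefore a description and not a trait particular to the members.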

How the data were processed

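ChIP-Seq of Bio-Myc, BioMock, Max and IgG in E14 ESCs gave 4 samples, of which Bio-Myc and Max have peak lists. Per the labels and the methods of the study, the authors sequenced on a HiScanSQ, mapped unique reads with at most 2 mismatches to mm9 with Bowtie 0.12.7, removed redundant copies, and ran MACS 1.4.1 with a limit of 1e-08 on p and the control libraries as background. CASAVA 1.8 is also named in the processing notes. The deposited lists give positions and a score for each peak, which the authors' peak caller sets to -10 times log10 of p. Collapsing reads and the p limit make the score and the width depend on depth, which is unknown here.

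Max peaks were intersected with Bio-Myc peaks (at least 1 bp) and with all protein-coding TSSs of GENCODE release M1, and E-Boxes and motifs were read from the mm9 genome in Python 3.11.15 with numpy 2.4.6, scipy 1.17.1 and matplotlib 3.10.9. Sequences and positions are mm9, 1-based. RefSeq (GRCm38.p6) was used for synonyms only. The functions were tested on simulated peaks. Shares have Wilson and differences Newcombe intervals, and medians exact binomial intervals. The members, gene lists and motifs were chosen with earlier results of these data known. Genes named in the text are those of the 10 highest scores, of the 5 members with the most E-Boxes, of up to 5 members per list, of the extreme members for position, flanks and distance to Bio-Myc, and of peaks next to the limits. The other germline, lysosome and E-Box form members, the comparison genes of the germline list, and Rnf17 as a germ cell gene, were named after their values were seen. The single-match palindromes, the score quartiles, occupancy by flank, the repeated sites and CpG-rich peaks were added after seeing the data. Some genes that the naming rule covers are not reported here.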

Additional observations from a re-analysis of the deposited data

How the results depend on the processing

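No paired analysis was possible because each ChIP had 1 library, and no replicate could be left out. Of 346 recomputed values, 290 were classed as the same as in the main setting. For a difference this required the same sign and the same exclusion or inclusion of 0, with no limit on its size. A share or median had to stay within its main interval, and a count within a fixed ratio of its main value. With a Max score of 150 or more, there were 850 members and 927 genes, 45.3% had the E-Box within 100 bp of the centre (2.76 points above shared peaks, interval -1.71 to 7.23), 20.9% had 2 or more E-Boxes, the CpG ratio was 0.776, GC was 64.2%, 4 motifs were lower than in shared peaks and 8.52% of promoter E-Boxes lay under a member. With a 500-bp promoter window, the CpG ratio was 0.753, 56.0% of members had the E-Box within 250 bp of the TSS and 17.3% of promoter E-Boxes lay under a member. With peaks that cover a TSS, 49.2% had the E-Box within 100 bp of the centre, the CpG ratio was 0.775, GC was 64.0%, T stood before 26.8% of E-Box ends, 58.0% of E-Boxes were upstream, 67.7% were within 250 bp of the TSS (1.62 points above shared peaks, a reversal), 7.98% of promoters were divergent, 5 motifs were lower than in Max-only peaks without an E-Box instead of 8, and 4.53% of members had Bio-Myc within 5 kb. With the E-Box required in the central 500 bp, 65.4% had it within 100 bp and 55.8% within 250 bp of the TSS. In peaks of 500 to 1000 bp, 67.7% had it within 100 bp of the centre (-5.58 points against shared peaks, a reversal), 13.5% had 2 or more, the CpG ratio was 0.712, GC was 62.2%, and 4 germline and 7 lysosome genes had a member peak. With Bio-Myc required to cover 50% of the Max peak before it counted as shared, 8.66% had Bio-Myc within 5 kb. Limits of 50 and 200 bp from the centre gave 32.6% and 75.1%. Over the whole peak, the CpG ratio was 0.701, GC was 60.2%, 17 motifs were lower than in shared peaks and 2 lower than in Max-only peaks without an E-Box, KLF4 was lower than in shared peaks by 0.53 points (-0.53), a reversal, and CAGCTG was higher by 2.54 points with an interval that included 0. In CpG-rich peaks, 49.5% had the E-Box within 100 bp, T stood before 27.1% of ends, 59.5% were within 250 bp of the TSS (-3.56 points against shared peaks, interval -7.93 to 0.81), 4 and 3 motifs were lower than in the 2 other classes, and 4.76% had Bio-Myc within 5 kb. Apart from the settings' own construction (fewer or narrower peaks), the causes were not tested. By the same rules, no listed value changed without the 6 members in the first 3.2 Mb of chromosomes 9 and 11, 5 of them in repeated sequence. That also held on adding chromosomes 8, X and Y, dropping the score limit or requiring 5 kb from Bio-Myc. Without read depth, weak Bio-Myc binding at members cannot be assessed.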
